A study of Homo sapiens with 21 samples.

Results

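MHC class I antigen presentation is described here through 9 genes of the pathway, HLA-B, HLA-C, HLA-E, HLA-F, B2M, TAP1, TAP2, PSMB8 and PSMB9, chosen by gene symbol from the 16383 genes of the deposited table. The cells were IMR90 fibroblasts, a cell line long established from human lung, sequenced as 21 RNA libraries, 3 for each of 7 groups. The proliferating group received no treatment, so irradiation and transfection cannot be told apart in any comparison with it. The other 6 groups were made senescent by irradiation and received 5 nM siRNA both 4 and 7 days later, with harvest 10 days after irradiation. Their siRNA was non-targeting NT3, non-targeting NT4, or directed against CCND1 (cyclin D1, the regulatory partner of both kinases), CDK4, CDK6, or CDK4 and CDK6 together (dual knockdown). All 6 groups therefore share irradiation and transfection. The labels name a single reagent per target and do not say that the libraries of a group came from separate cultures, so p-values measure the spread between these libraries, and effects of a reagent outside its target cannot be told apart from those of its target.

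Class I molecules show fragments of a cell's own proteins to CD8 T cells. Proteasomes cut the proteins, the TAP1-TAP2 transporter carries the peptides into the endoplasmic reticulum, and chaperones load them onto a heavy chain (such as HLA-B or HLA-C) that is held in shape by beta-2-microglobulin, the product of B2M. Interferon signalling, the interferon-induced factor IRF1 and the transactivator NLRC5 are known to raise many of these genes, among them PSMB8 and PSMB9, which encode catalytic subunits of the immunoproteasome.

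Only B2M, on chromosome 15 (chr15:44711517-44718145 in GRCh38), lies outside the major histocompatibility complex on chromosome 6, and the position of the other 8 members limited what could be read. Of 122 listed protein-coding genes between HLA-F and TAPBP (chr6:29723434-33314078), 114 had a mean normalised read count under 10 over the 21 libraries, which is 93.4%, against 32.1% of all listed genes. Their median was 0.0512, against 217.9 for the 43 genes of the equally long stretch that follows and 3.32 for the 78 genes of the stretch before. In the stretch that follows 27.9% of genes had means under 10, and in the stretch before 60.3%. The borders were set by HLA-F and TAPBP and not by the values. Genes just outside were also near 0, such as MOG (0) before and ZBTB22 (0.0477) after, though DAXX, next to ZBTB22, had 13.7. Between HLA-F and TAPBP, genes that every cell uses were among those near 0. DDX39B, an RNA helicase, and LSM2, a splicing factor, were listed at 0 in all 21 libraries, and RPS18, a ribosomal protein, had a mean of 1.07. These helicase, splicing and ribosomal genes were chosen after their values were seen. A value of 0 in this stretch is therefore given only as listed at 0. The cause was not tested, and the treatment of multiply mapped reads and of strand is not given in the sources used here.

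Single genes of the stretch also carried reads in single libraries. CLIC1, a chloride channel protein, had a normalised read count of 413.9 in CDK6 knockdown replicate 3 and at most 8.49 in the other 20 libraries. BRD2 reached 245.6 in CDK4 knockdown replicate 2 and 24.0 to 128.4 elsewhere. HLA-B (chr6:31353875-31357179) stood apart with a mean of 1563 and at least 920 reads in every library. The other members of the stretch held 220 reads over all 21 libraries for HLA-E, 299 for TAP2, 88 for HLA-C, 25 for PSMB8, 6 for TAP1, 3 for PSMB9 and 0 for HLA-F. Values at such depth carry large counting error. Only B2M, HLA-B, HLA-E and TAP2 reached a value of 10 in 3 libraries and were tested, 4 of 9 members.

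**Figure D1:**
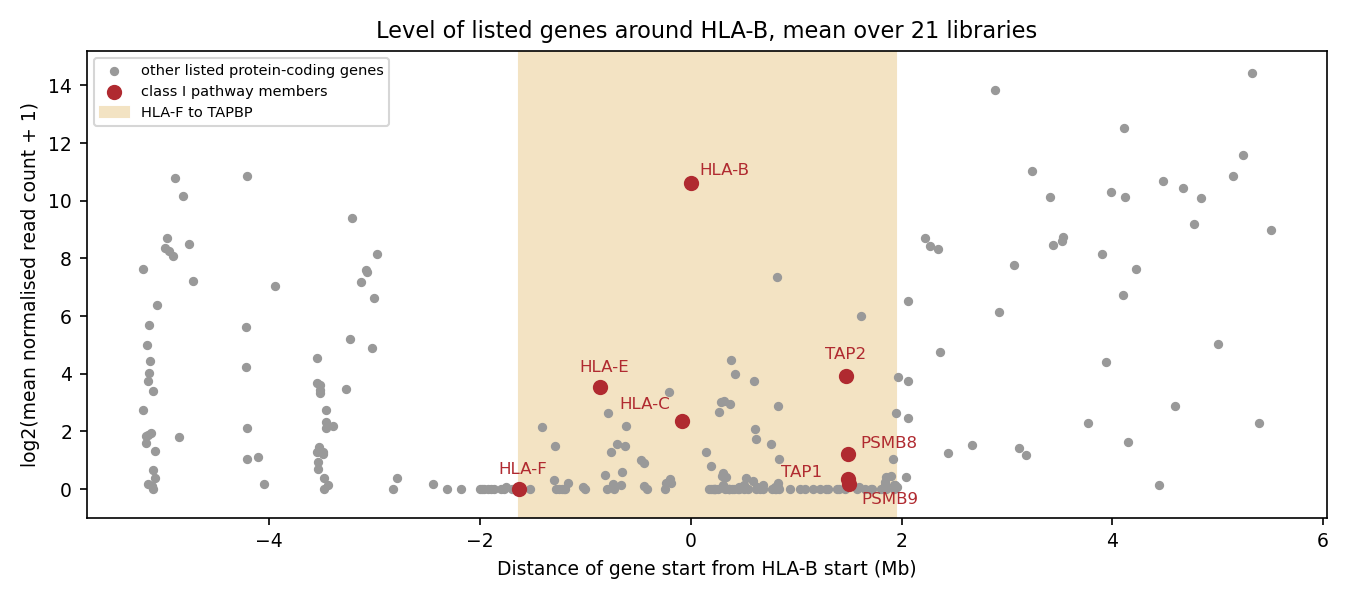
Mean normalised read count over 21 libraries, as log2 of the mean plus 1, for listed protein-coding genes by distance from the start of HLA-B in megabases. Red points are pathway members, and the shaded band runs from HLA-F to TAPBP. HLA-B is far above the other members in the band, where 114 of 122 genes had means under 10.

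The 250 bases before the start of B2M and HLA-B are shown because these genes carry nearly all the class I reads, and those of PSME2, an activator subunit described below, because its level correlated with that of B2M; it was chosen after its values were seen. They are from RefSeq (GRCh38.p14), which had promoters for 8 of the 9 members. They run 5′ to 3′ on the gene's strand, at chr15:44711267-44711516 on the plus strand for B2M, chr6:31357180-31357429 on the minus strand for HLA-B and chr14:24146611-24146860 on the minus strand for PSME2. Capitals mark matches on either strand to an IRF-type motif (AANNGAAA), an NF-kB-type motif (GGGNNTTNC) or a CRE-type motif (TGACG).
B2M: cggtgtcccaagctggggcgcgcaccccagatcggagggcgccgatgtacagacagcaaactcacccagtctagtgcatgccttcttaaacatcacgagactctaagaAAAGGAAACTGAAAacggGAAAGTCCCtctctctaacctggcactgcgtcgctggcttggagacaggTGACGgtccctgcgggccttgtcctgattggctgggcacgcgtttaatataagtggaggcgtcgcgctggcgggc
HLA-B: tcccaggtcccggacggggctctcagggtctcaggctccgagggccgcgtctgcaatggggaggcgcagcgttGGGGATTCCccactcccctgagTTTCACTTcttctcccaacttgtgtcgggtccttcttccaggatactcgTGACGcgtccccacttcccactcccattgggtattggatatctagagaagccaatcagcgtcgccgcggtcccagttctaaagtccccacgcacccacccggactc
PSME2: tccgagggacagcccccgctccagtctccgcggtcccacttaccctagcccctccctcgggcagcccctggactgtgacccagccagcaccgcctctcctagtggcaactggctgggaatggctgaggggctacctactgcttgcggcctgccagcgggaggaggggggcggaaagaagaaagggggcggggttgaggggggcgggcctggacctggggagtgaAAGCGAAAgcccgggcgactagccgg
B2M held 2 overlapping IRF-type matches, the first starting 142 bases before the gene start, then an NF-kB-type match on the opposite strand starting at 124 and a CRE-type match at 75. HLA-B held an NF-kB-type match at 177, an IRF-type match on the opposite strand at 155 and, nearer the start, a CRE-type match. Counting any listed start of a gene, the IRF-type motif was in 6 of the 8 members (HLA-B, HLA-C, HLA-F, B2M, TAP1 and TAP2), the NF-kB-type motif in 4 (HLA-B, B2M, TAP1 and PSMB8) and the CRE-type motif in 6 (HLA-B, HLA-C, B2M, TAP2, PSMB8 and PSMB9). Over 35116 promoter windows of this length, 20.3% held the IRF-type motif, 14.2% the NF-kB-type motif, 21.2% the CRE-type motif and 0.498% all 3. The NF-kB-type motif was first searched with 1 more C at its end, and was shortened after that result was seen. The longer form was in 5.07% of the windows and in 3 members (B2M, HLA-B and TAP1), and 0.165% of the windows held it with both other motifs. PSME2 held 1 IRF-type match, 26 bases before its start, and neither of the others. The motifs were chosen after earlier results of these data were known, and a match is a description of letters and not of a bound site.

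B2M was lowest in proliferating cells, at normalised read counts of 2160, 2254 and 2299 (2237 ± 70.7, SD, n = 3). In the senescent controls it stood at 5221, 4001 and 6164 with NT3 and at 3698, 3686 and 3656 with NT4. All 6 control libraries were above all proliferating libraries, as for 25.2% of tested genes. The knockdown libraries lay between, at 2609, 3090 and 3054 for CCND1, 3098, 2730 and 3188 for CDK4, 3045, 2534 and 2832 for CDK6, and 2584, 2573 and 2489 for the dual knockdown. Every knockdown library was below every control library, as for 9.97%, 5.75%, 14.1% and 14.5% of tested genes with CCND1, CDK4, CDK6 and dual knockdown. Every knockdown library was also above every proliferating library, as for 36% of tested genes with the dual knockdown. That share was not counted for CCND1, CDK4 and CDK6 knockdown.

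HLA-B, a classical heavy chain, had its lowest mean in proliferating cells, next lowest in the dual and CDK6 knockdowns, and highest with NT3. Its normalised read counts were 1159, 979 and 1002 in proliferating cells, 2526, 2196 and 3115 with NT3 and 1834, 2033 and 1659 with NT4. They were 1414, 1328 and 1649 for CCND1 knockdown, 1339, 1220 and 1552 for CDK4, 1485, 1289 and 1207 for CDK6, and 1604, 1020 and 1213 for the dual knockdown. Again no knockdown library reached the lowest control library, although 1 dual knockdown library (replicate 2) fell within the proliferating range. How reads shared by HLA-B and its relatives were assigned is not given in the sources used here, so its values may include reads of other class I genes.

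**Figure D2:**
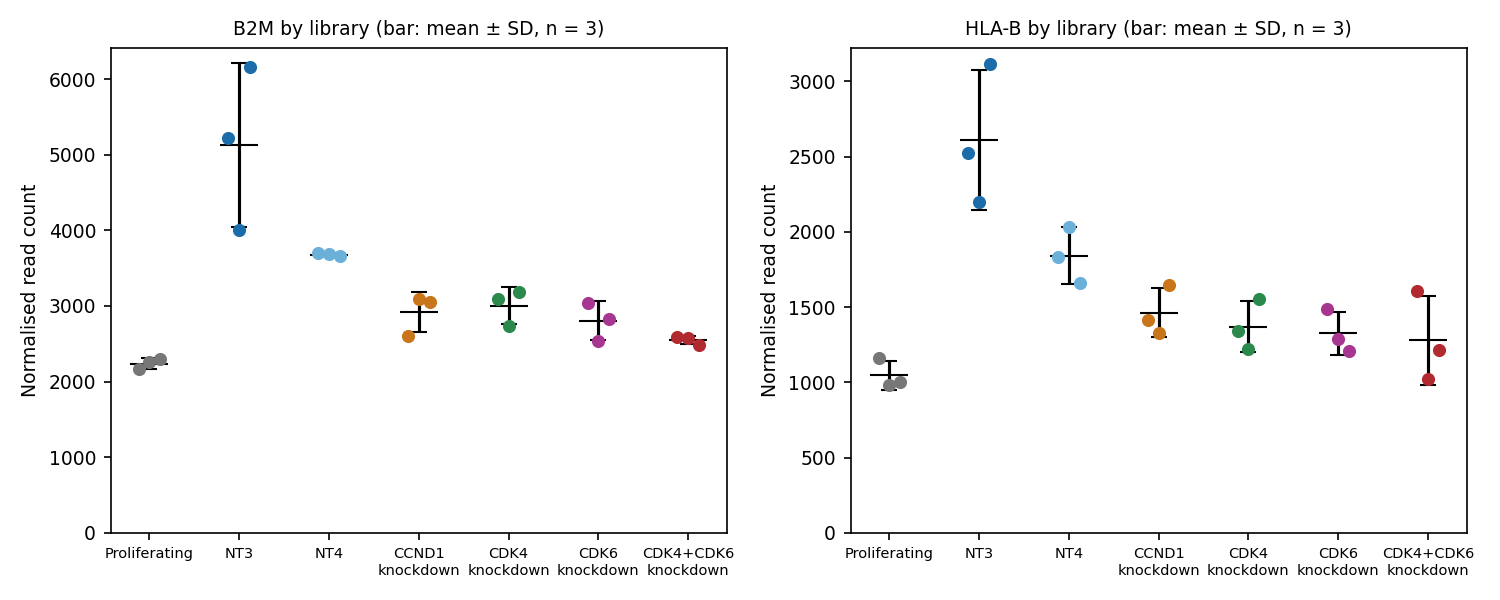
Normalised read counts of B2M and HLA-B in each library (points) with the mean and SD of each group of 3 (bars), on linear axes from 0. NT3 and NT4 libraries are highest and knockdown libraries are below every control library. Proliferating libraries are lowest for B2M, while for HLA-B 1 dual knockdown library lies within their range.

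The first comparison asked how the pathway differed between senescent controls and proliferating cells. B2M was 1.93-fold higher (log2 fold change 0.95, SE 0.09, adjusted p = 6.66e-09) and HLA-B 2.09-fold higher (1.06, SE 0.12, adjusted p = 1.13e-07). TAP2, part of the peptide transporter, was also higher (1.87, SE 0.36, adjusted p = 0.000107). TAP2 and HLA-E were under 10 in every proliferating library, so they reached the value needed for testing only in irradiated libraries. That choice favours a rise of TAP2 and HLA-E in this comparison. Counting TAP2, 3 of the 4 tested members rose. Of the 11579 tested genes 32.6% were called higher, 36.1% lower and 68.6% in either direction. The median log2 fold change over all tested genes was -0.03, and 0.09 after median centring. Of 7945 called genes 3769 were higher, and with median centring 4614 of 7969. Bulk RNA cannot tell fewer cells of a type from less RNA per cell.

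The 2 control siRNAs did not give the same class I level. With NT4, B2M was at 72.9% of its NT3 level (log2 fold change -0.46, SE 0.11, adjusted p = 0.0028) and HLA-B at 71.0% (-0.49, SE 0.14, adjusted p = 0.0129), and in both genes no NT4 library reached the lowest NT3 library, as for 17.2% of tested genes. Such calls were common between the controls, where 27.8% of tested genes differed and 13.1% were lower with NT4. Neither call held when NT3 and NT4 were fitted alone (adjusted p = 0.0895 for B2M and 0.0615 for HLA-B), and that of HLA-B was lost without NT4 replicate 3 (adjusted p = 0.0681). NT3 replicate 3, the library farthest from its group mean over all genes, had the highest B2M and HLA-B of all. Without it B2M was at 80.5% (adjusted p = 0.00822) and HLA-B at 78.0% (adjusted p = 0.0486).

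Each knockdown was compared with the mean of NT3 and NT4, so these comparisons share the same 6 control libraries. B2M and HLA-B fell in all 4, and HLA-E and TAP2 passed in none, except that TAP2 fell with the dual knockdown when its replicate 2 was left out (-1.02, adjusted p = 0.031). With CCND1 knockdown B2M was at 67.5% of the control level (log2 fold change -0.57, SE 0.09, adjusted p = 7.58e-05) and HLA-B at 66.9% (-0.58, SE 0.12, adjusted p = 0.00115), where 14.4% of tested genes were called lower. With CDK4 knockdown B2M was at 69.6% (-0.52, SE 0.09, adjusted p = 0.000395) and HLA-B at 62.6% (-0.68, SE 0.12, adjusted p = 0.000601), where 7.55% were called lower.

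CDK6 knockdown left B2M at 64.9% of the control level (-0.62, SE 0.09, adjusted p = 1.26e-05) and HLA-B at 60.7% (-0.72, SE 0.12, adjusted p = 7.36e-05), where 20.8% of tested genes were called lower. The dual knockdown left B2M at 59.1% (-0.76, SE 0.09, adjusted p = 7.78e-07) and HLA-B at 57.7% (-0.79, SE 0.12, adjusted p = 2.05e-05), where 21.5% were called lower. Genes with all knockdown libraries below all controls made up 9.97% of tested genes for CCND1, 5.75% for CDK4, 14.1% for CDK6 and 14.5% for the dual knockdown.

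Because the controls differed, the size of each fall depended on which was used. Against NT4 alone the dual knockdown lowered B2M to 69.2% (adjusted p = 0.000459) and HLA-B to 68.5% (adjusted p = 0.00463), and CDK6 knockdown to 76.0% (adjusted p = 0.00659) and 72.0% (adjusted p = 0.0145). CCND1 knockdown kept the call for B2M, at 79.1% (adjusted p = 0.0274), but not for HLA-B, at 79.4% (adjusted p = 0.111). CDK4 knockdown lost both, with B2M at 81.5% (adjusted p = 0.0767) and HLA-B at 74.3% (adjusted p = 0.0545). Against NT3 alone all 4 knockdowns were called for both genes, with levels of 48.6 to 59.4%.

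**Figure D3:**
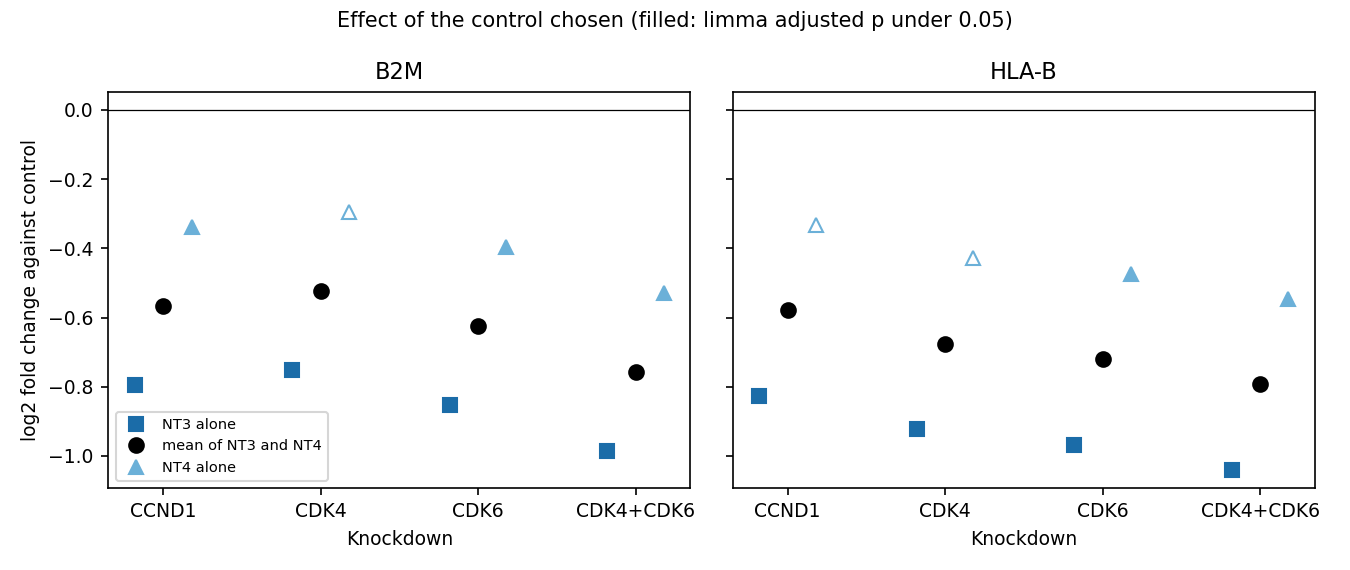
Log2 fold change of B2M and HLA-B for each knockdown against NT3 alone (squares), the mean of NT3 and NT4 (circles) and NT4 alone (triangles), filled where the limma adjusted p was under 0.05. Open triangles are B2M in CDK4 knockdown and HLA-B in CCND1 and CDK4 knockdown.

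In the 3 pairs of knockdowns that were compared, no member differed past the threshold by limma. Dual against CDK4, CCND1 against CDK4 and CCND1 against CDK6 knockdown were not compared. Dual against CDK6 knockdown gave a log2 difference of -0.13 for B2M (95% interval -0.35 to 0.09, adjusted p = 0.452) and -0.07 for HLA-B (-0.37 to 0.22, adjusted p = 0.792), where 13% of tested genes were called. CDK6 against CDK4 knockdown gave -0.10 (-0.32 to 0.12, adjusted p = 0.502) and -0.04 (-0.34 to 0.25, adjusted p = 0.84), where 34.8% were called. CCND1 against dual knockdown gave 0.19 (-0.03 to 0.41, adjusted p = 0.226) and 0.21 (-0.08 to 0.51, adjusted p = 0.326), where 20.3% were called. In these 3 comparisons 0 of the 4 tested members had an unadjusted p under 0.05, and edgeR and DESeq2 also called 0. Fitted on the compared groups alone, B2M was called higher in CCND1 than in dual knockdown (adjusted p = 0.0221).

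The dual knockdown was also set against the summed effects of the single CDK4 and CDK6 knockdowns. Its departure was 0.39 on the log2 scale for B2M (SE 0.14, adjusted p = 0.106) and 0.60 for HLA-B (SE 0.19, adjusted p = 0.0594), positive where the dual fall is smaller than the sum, and 6.35% of tested genes were called. By limma 0 of the 4 members were called, with 2 at an unadjusted p under 0.05, while edgeR called 0 and DESeq2 called HLA-B (0.61, adjusted p = 0.0218). Both genes were called without NT3 replicate 3 (0.32, adjusted p = 0.0448, and 0.54, adjusted p = 0.0277), without NT3 replicate 2 (0.47, adjusted p = 0.00554, and 0.66, adjusted p = 0.0215) and against NT3 alone (0.62, adjusted p = 0.00726, and 0.85, adjusted p = 0.00619). Against NT4 alone neither was called, and the departures were smaller (0.16, adjusted p = 0.665, and 0.36, adjusted p = 0.405). HLA-B alone was called without CDK4 knockdown replicate 3 (0.70, adjusted p = 0.0423) or dual knockdown replicate 2 (0.75, adjusted p = 0.0185).

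Against proliferating cells, the dual knockdown had B2M at 113.9% (0.19, SE 0.11, adjusted p = 0.124) and HLA-B at 120.4% (0.27, SE 0.14, adjusted p = 0.104), neither past the threshold. B2M libraries did not overlap between these groups, as for 36% of tested genes in the same direction. Both were called higher after median centring (0.32, adjusted p = 0.0113, and 0.40, adjusted p = 0.0169), which moved the median of all genes from 0.00 to 0.13 and the genes called higher from 3790 of 7595 to 4697 of 7689. HLA-B was also called without dual knockdown replicate 2 (0.42, adjusted p = 0.0171), and B2M when these groups were fitted alone (adjusted p = 0.00143). TAP2 was the 1 member called higher (1.38, SE 0.42, adjusted p = 0.00662), where 32.7% of tested genes were, and lost the call without dual knockdown replicate 2 (0.85, adjusted p = 0.0729). As given above, TAP2 was tested only through irradiated libraries.

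B2M and HLA-B, on different chromosomes, varied together. Their log2 values had a Pearson correlation of 0.93 over 21 libraries, 0.92 over the 18 irradiated libraries and 0.90 over 20 libraries without NT3 replicate 3. The points share libraries, size factors and group means, and the values are a description.

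**Figure D4:**
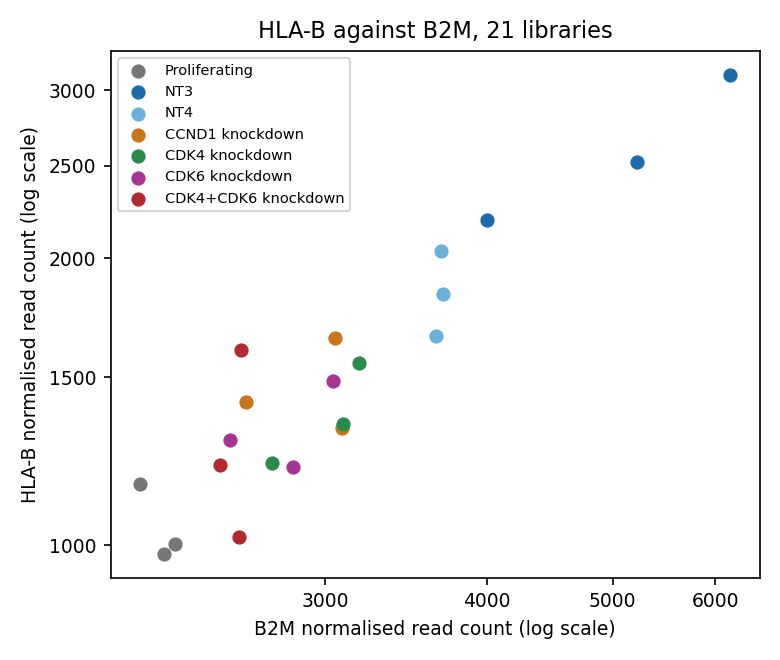
HLA-B against B2M normalised read counts in 21 libraries, both axes on log scales, coloured by group. Proliferating libraries are at the lower left, NT3 libraries at the upper right, and knockdown libraries between proliferating and NT4 libraries for B2M, with HLA-B of 1 dual knockdown library in the proliferating range.

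TAP2 (chr6:32821831-32838739) rested on few reads. Its normalised read counts were 3.49, 2.13 and 7.09 in proliferating cells, 14.5, 19.2 and 21.8 with NT3 and 16.7, 11.7 and 18.3 with NT4. They were 9.57, 12.8 and 10.8 for CCND1 knockdown, 14.2, 21.3 and 28.5 for CDK4, 15.3, 15.8 and 12.5 for CDK6, and 9.93, 25.1 and 6.01 for the dual knockdown. All control libraries exceeded all proliferating libraries, as did 25.2% of tested genes, and the groups of knockdown libraries overlapped the controls. The rise in senescent controls did not pass after quantile normalisation (0.69, adjusted p = 0.0865).

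HLA-E (chr6:30489509-30494194), which presents leader peptides to natural killer receptors, held 3 to 48 reads a library. The highest was NT4 replicate 1, at a value of 53.4, where the other NT4 libraries were at 9.73 and 4.81 and the proliferating libraries at 4.37, 3.19 and 7.09. In senescent controls against proliferating cells the log2 difference was 1.07 (SE 0.49, adjusted p = 0.0588). It was past the threshold by edgeR (1.42, adjusted p = 0.0472), DESeq2 (adjusted p = 0.0227), median centring (1.18, adjusted p = 0.0377) and NT4 alone (1.41, adjusted p = 0.0349). It also passed without proliferating replicate 3 (1.32, adjusted p = 0.0483), NT4 replicate 2 (1.19, adjusted p = 0.0476) or NT4 replicate 3 (1.41, adjusted p = 0.00818). It did not pass with NT3 alone (0.72, adjusted p = 0.265), and was -0.19 after quantile normalisation (adjusted p = 0.778). Leaving out single libraries gave 0.60 to 1.41.

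The remaining 5 members were not tested. HLA-C (chr6:31268749-31272092), a classical heavy chain, had values of 7.27, 9.93 and 13.3 with NT3, 2.23, 1.95 and 1.92 with NT4 and 4.37, 1.06 and 0.886 in proliferating cells, from 0 to 14 reads a library. TAP1 (chr6:32845209-32853704), the partner of TAP2, had 6 reads in 5 libraries. PSMB8 (chr6:32840717-32844679) had its 25 reads in dual knockdown replicate 2 and was listed at 0 in the other 20 libraries. PSMB9 (chr6:32854192-32859851) had 3 reads in 1 CCND1 knockdown library. HLA-F (chr6:29723434-29738532), a non-classical heavy chain, was listed at 0 throughout. No comparison is drawn from these values.

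Genes of the same pathway outside the complex were better covered. Over 7 further lists, 53 of 54 listed genes outside the stretch were tested, against 0 of 17 inside it. Those inside include TAPBP, the loading chaperone tapasin (0.873 to 8.83). The proteasome genes come first. PSMB10, the immunoproteasome subunit encoded outside the complex, had values of 271.6, 244.8 and 291.4 in proliferating cells, 367.5, 324.2 and 468.4 with NT3 and 303.8, 346.5 and 301.0 with NT4. It was higher in senescent controls (0.37, adjusted p = 0.00693), though not with NT4 alone (0.24, adjusted p = 0.127), and no knockdown changed it past the threshold (-0.17 to 0.01).

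PSME2, a subunit of the interferon-inducible PA28 proteasome activator, stood at 1119, 1038 and 1093 in proliferating cells, 1857, 1605 and 2869 with NT3 and 1510, 1694 and 1590 with NT4. It was at 1411, 1386 and 1576 with CCND1 knockdown, 1722, 1533 and 1849 with CDK4, 1180, 1097 and 1105 with CDK6 and 1180, 1113 and 1168 with the dual knockdown. CDK6 and dual knockdown libraries were all below every control library, and CDK4 knockdown libraries were among the controls. PSME2 rose in senescent controls (0.74, adjusted p = 4.89e-06) and fell with CDK6 (-0.68, adjusted p = 4.57e-05) and dual knockdown (-0.65, adjusted p = 7.22e-05). The CCND1 fall (-0.31, adjusted p = 0.0381) was lost against NT4 alone (-0.13, adjusted p = 0.52), and CDK4 knockdown gave -0.09 (adjusted p = 0.646). CDK6 and CDK4 knockdown differed for this gene (-0.59, adjusted p = 0.00108).

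PSME1, the other PA28 subunit, did not differ past the threshold in senescent controls (-0.03, adjusted p = 0.815). It fell with CCND1 (-0.49, adjusted p = 0.00151), CDK6 (-0.43, adjusted p = 0.0031) and dual knockdown (-0.37, adjusted p = 0.00838), and none of these passed against NT4 alone (adjusted p = 0.0936, 0.159 and 0.271). Of the 5 immunoproteasome and activator genes outside the complex (PSMB10, PSME1, PSME2, PSME3 and the assembly factor POMP), 3 rose in senescent controls, where 32.6% of all tested genes were called higher. They were PSME2, PSMB10 and POMP. PSMB10 did not pass with NT4 alone, as given above. POMP had means of 2807 with NT3, 1919 with NT4 and 1933 in proliferating cells. With CCND1, CDK4, CDK6 and dual knockdown 2, 0, 3 and 2 fell, where 14.4%, 7.55%, 20.8% and 21.5% of all tested genes were called lower. With CDK4 knockdown limma called 0 of 5, with 0 at an unadjusted p under 0.05, and edgeR and DESeq2 also called 0. The list's median log2 fold change with CDK6 knockdown was -0.15, against -0.01 over all tested genes.

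**Figure D5:**
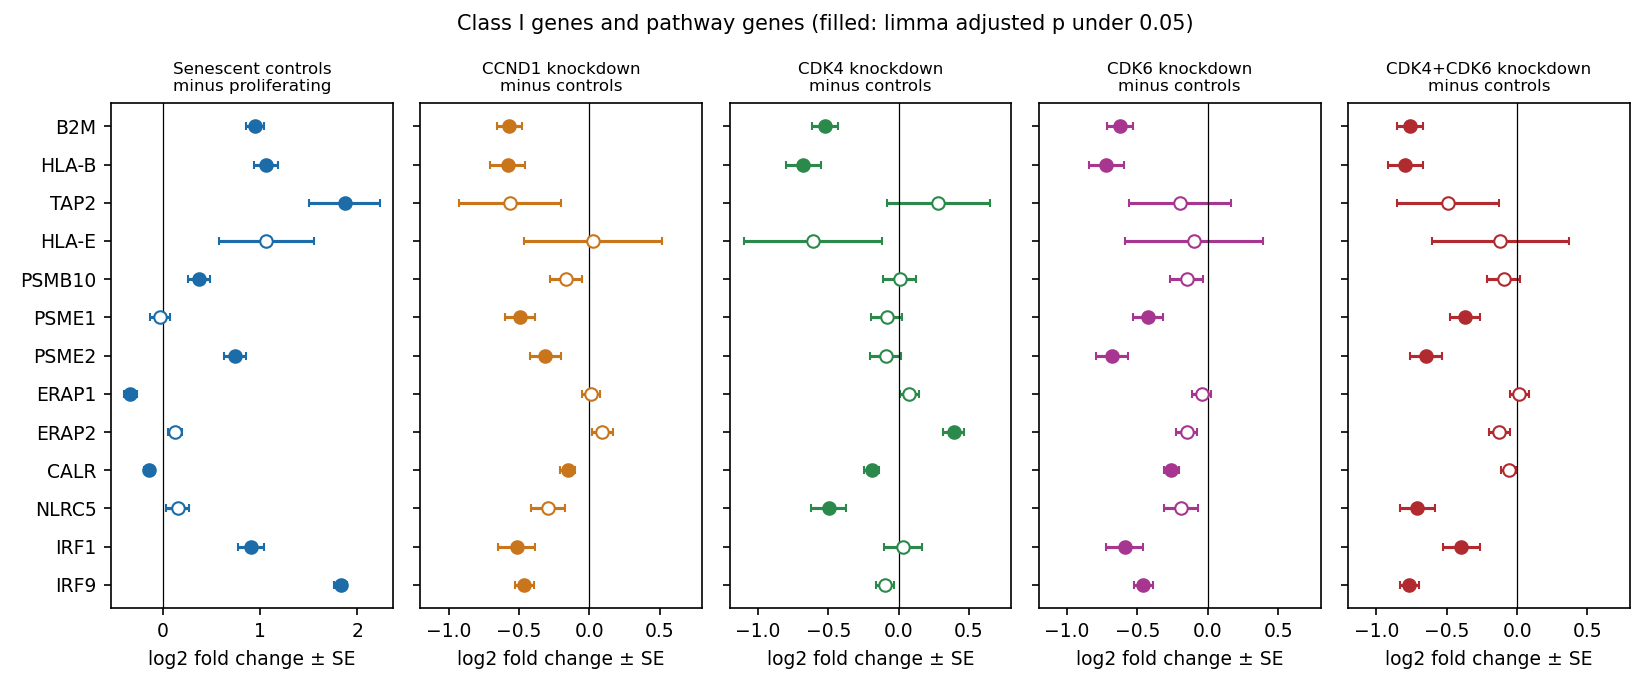
Log2 fold change with its standard error for 4 members and 9 pathway genes in senescent controls against proliferating cells and in each knockdown against the mean of NT3 and NT4, filled where the limma adjusted p was under 0.05. The 4 knockdown panels share one horizontal scale. B2M and HLA-B are filled in every panel, while IRF9, IRF1 and PSME2 are open in the CDK4 panel.

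The constitutive catalytic subunits that the immunoproteasome subunits replace are encoded outside the complex. PSMB5 rose in senescent controls (0.42, adjusted p = 0.000333) and PSMB6 and PSMB7 were at 0.07 and 0.01 (adjusted p = 0.547 and 0.917). With CDK6 knockdown PSMB7 fell (-0.26, adjusted p = 0.00412), not past the threshold against NT4 alone (-0.16, adjusted p = 0.131). Of the 14 genes of the 20S core, 3 rose and 2 fell in senescent controls (32.6% and 36.1% of all tested genes) and 7 were lower with NT4 than NT3 (13.1%). With CCND1, CDK4, CDK6 and dual knockdown 5, 0, 8 and 3 fell, against 14.4%, 7.55%, 20.8% and 21.5% of all tested genes, so that the dual knockdown count was near the background, and PSMB2 rose with the dual knockdown (0.19, adjusted p = 0.0203). For CDK4 knockdown the count of 0 by limma went with 3 at an unadjusted p under 0.05, and 0 by edgeR and DESeq2.

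Among 12 regulators of class I transcription, 5 rose and 4 fell in senescent controls, where 32.6% and 36.1% of all tested genes did. IRF9, the DNA-binding subunit of an interferon-activated transcription complex, had normalised read counts of 393.0, 393.7 and 444.7 in proliferating cells, 1610, 1422 and 1522 with NT3 and 1344, 1457 and 1419 with NT4. It was at 1068, 1022 and 1092 with CCND1 knockdown, 1504, 1205 and 1403 with CDK4, a mean of 1064 ± 57.6 (SD, n = 3) with CDK6, and 849, 905 and 821 with the dual knockdown. Libraries of CCND1, CDK6 and dual knockdown were below every control library, and those of CDK4 knockdown overlapped the controls.

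IRF9 rose in senescent controls (1.83, adjusted p = 7.77e-16) and fell with CCND1 (-0.46, adjusted p = 2.33e-05), CDK6 (-0.46, adjusted p = 1.23e-05) and dual knockdown (-0.77, adjusted p = 7.09e-09), also against either control alone. With CDK4 knockdown it was at -0.10 (adjusted p = 0.37). IRF1 rose (0.91, adjusted p = 3.72e-06) and fell with CCND1 (-0.52, adjusted p = 0.00576), CDK6 (-0.59, adjusted p = 0.00126) and dual knockdown (-0.40, adjusted p = 0.021), the last not against NT3 alone (adjusted p = 0.0551), and was at 0.03 with CDK4 knockdown (adjusted p = 0.908). CDK6 and CDK4 knockdown differed for IRF9 (-0.36, adjusted p = 0.000908) and IRF1 (-0.62, adjusted p = 0.00318), and did not pass for B2M or HLA-B as given above.

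Normalised read counts of NLRC5, the class I transactivator, were 398.3, 355.4 and 349.9 in proliferating cells, 464.0, 410.8 and 285.2 with NT3, and 458.5, 421.4 and 437.6 with NT4. They were 337.1, 285.9 and 380.8 with CCND1 knockdown, 282.2, 281.1 and 303.3 with CDK4, 386.8, 367.1 and 320.9 with CDK6, and 256.1, 285.0 and 212.2 with the dual knockdown. It did not pass in senescent controls (0.15, adjusted p = 0.282), and fell with CDK4 (-0.50, adjusted p = 0.00748) and dual knockdown (-0.71, adjusted p = 7.61e-05), against either control alone as well. CCND1 and CDK6 knockdown gave -0.29 (adjusted p = 0.0732) and -0.19 (adjusted p = 0.225). Of the 12 regulators 6, 1, 7 and 6 fell with CCND1, CDK4, CDK6 and dual knockdown (14.4%, 7.55%, 20.8% and 21.5% of all tested genes), and RFX5 rose with CDK6 knockdown (0.28, adjusted p = 0.00139).

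Peptide trimming and loading genes changed in both directions. ERAP1, which trims peptides in the endoplasmic reticulum, was lower in senescent controls (-0.34, adjusted p = 0.000126) and passed in no knockdown (-0.04 to 0.08). ERAP2, its relative, was higher with NT4 than NT3 (0.57, adjusted p = 3.39e-05). It was higher with CDK4 knockdown (0.39, adjusted p = 0.000796) against the mean of the controls, but not against NT4 alone (0.11, adjusted p = 0.495), against which it was lower with CDK6 (-0.43, adjusted p = 0.000458) and dual knockdown (-0.41, adjusted p = 0.000618). CALR, the loading chaperone calreticulin, fell with CCND1 (-0.15, adjusted p = 0.0324), CDK4 (-0.19, adjusted p = 0.0163) and CDK6 knockdown (-0.26, adjusted p = 0.000466) and was at -0.06 with the dual knockdown (adjusted p = 0.399). The CCND1 fall of CALR did not pass against NT3 alone (adjusted p = 0.114), nor did that of CDK4 knockdown (adjusted p = 0.0563).

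CANX, the chaperone calnexin, shows how the 2 controls weigh on such counts. It was higher with NT4 than NT3 (1.06, adjusted p = 6.03e-11), and higher than the mean of the controls in all 4 knockdowns (0.34 to 0.55). Against NT4 alone it was at 0.02 with CCND1 (adjusted p = 0.829), -0.11 with CDK4 (adjusted p = 0.278), -0.19 with CDK6 (adjusted p = 0.0217) and -0.09 with dual knockdown (adjusted p = 0.256). Of the 7 tested genes of this list 1 rose and 4 fell in senescent controls, where 32.6% and 36.1% of all tested genes did, with TAPBPL rising (0.61, adjusted p = 0.000332). CANX is 1 of the 4 and turned with the control, from -0.65 with NT3 alone (adjusted p = 3.39e-09) to 0.41 with NT4 alone (adjusted p = 4.59e-06). CALR is another, and its fall did not pass with NT4 alone (-0.11, adjusted p = 0.111).

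Of class I-like genes encoded elsewhere 4 were tested, and 3 rose in senescent controls, where 32.6% of all tested genes were called higher. They were FCGRT (0.74), PROCR (0.56) and MR1 (0.42), with adjusted p-values of 3.25e-09, 0.000104 and 0.000735. Ligands that natural killer and T cells read beside class I were also measured. Of 8 tested, 2 rose and 4 fell in senescent controls, where 32.6% and 36.1% of all tested genes did. ULBP1 and ULBP2, stress ligands of the NKG2D receptor, rose in senescent controls (2.27, adjusted p = 9.02e-15, and 1.65, adjusted p = 4e-10), and CD274, which encodes PD-L1, fell (-0.36, adjusted p = 0.000328), though not past the threshold with NT3 alone (adjusted p = 0.0664). CD274 fell further with CCND1 (-0.58, adjusted p = 8.16e-06), CDK6 (-0.47, adjusted p = 4.42e-05) and dual knockdown (-1.11, adjusted p = 2.23e-10), with a dual knockdown level below that of CDK6 (-0.64, adjusted p = 3.71e-05). PDCD1LG2, which encodes PD-L2, rose in those 3 (0.55, 0.67 and 0.47). PDCD1LG2 and CD274 gave 0.09 and -0.08 with CDK4 knockdown (adjusted p = 0.489 and 0.541).

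The class II pathway, which presents peptides to CD4 T cells, was scarcely readable, since 10 of its 13 listed genes lie in the stretch. CIITA, its master regulator, held values of 3.6 to 16.1, and CD74, the invariant chain, 10.4 to 36.4. Neither differed past the threshold in senescent controls (0.72, adjusted p = 0.124, and 0.60, adjusted p = 0.0606), and CD74 fell with CDK4 (-0.85, adjusted p = 0.043) and dual knockdown (-0.87, adjusted p = 0.0151), the former not against NT3 or NT4 alone (adjusted p = 0.0779 and 0.0758). CTSS, the cathepsin that processes the invariant chain, rose from 20.96, 25.54 and 20.37 in proliferating cells to 233.6, 247.6 and 269.4 with NT3 and 141.3, 171.3 and 139.5 with NT4 (3.07, adjusted p = 1.03e-13). It fell to 50.9, 52.2 and 29.7 with CDK6 (-2.15, adjusted p = 6.02e-10) and 37.5, 36.0 and 35.0 with dual knockdown (-2.39, adjusted p = 5.58e-11), with every library below the controls. CTSS also fell with CCND1 knockdown (-1.21, adjusted p = 4.21e-06), and CDK4 knockdown gave -0.23 (adjusted p = 0.34).

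Genes whose log2 values were most like the mean standardised level of the 4 tested members were AVPI1 (Pearson r 0.92), CREB3 (0.91), YBX3 (0.90), TUBA4A (0.90) and ATP6V0B (0.90) over 21 libraries. Over the 18 irradiated libraries they were SFMBT1 (0.92), DRG1 (0.91), EMC9 (0.91), ZNF830 (0.89) and YEATS4 (0.89), none of them in the first list. HLA-E and TAP2, which rest on few reads, weighed as much in that mean as B2M and HLA-B. Over the 18 irradiated libraries their r with B2M was -0.02 for HLA-E and 0.34 for TAP2. For B2M alone the highest r was that of CHMP2B (0.94) over 21 libraries and of GNL3 (0.94) over the 18. With B2M, PSME2 had an r of 0.87 and IRF1 of 0.63 over 21 libraries, and 0.84 and 0.47 over the 18 irradiated libraries. For GAPDH, outside the pathway, r with B2M was 0.19 over 21 and 0.40 over the 18. The points share libraries and depth, and the values are descriptions.

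Libraries held 12892442 to 21822152 reads in listed genes. The targeted genes checked the labels: CCND1 was 4198 to 5149 in its knockdown and at least 25615 in the other irradiated groups, CDK4 was 105.6 to 122.5 in its knockdowns and at least 889 elsewhere, and CDK6 727 to 998 in its knockdowns and at least 3483 elsewhere. All 10 fibroblast markers were present, led by COL1A1. Leukocytes are rich in class I, and 6 of 9 leukocyte markers, PTPRC (CD45), CD3E and MS4A1 among them, stayed under 10 in every library, while CD68 was at 650 to 1588. PTPRC had means of 0 in proliferating cells, 4.76 in controls and 1.36, 3.55, 1.60 and 1.76 with CCND1, CDK4, CDK6 and dual knockdown. Means of ITGAM, which reached 14.6, were 0, 7.50, 2.37, 8.12, 0.960 and 1.33 in the same order. Neither PTPRC nor ITGAM was tested. The summed leukocyte marker level was 654 to 688 in proliferating cells, 897 to 1012 with NT3, 1277 to 1429 with NT4, 1512 to 1615 with CDK4, 886 to 1059 with CCND1, 1060 to 1131 with CDK6 and 939 to 1011 with dual knockdown, and nearly all of it was CD68. CD14, a monocyte marker at 2.66 to 38.0, was higher in senescent controls (27.4 ± 6.83 against 3.76 ± 0.957, SD, n = 6 and 3, log2 difference 2.57, limma adjusted p = 4.3e-07). It was lower with CCND1 (-1.01, adjusted p = 0.0227) and dual knockdown (-0.91, adjusted p = 0.0278), and at -0.75 and -0.61 with CDK4 and CDK6 (adjusted p = 0.128 and 0.139). These are the directions of B2M, though CD14 was at 0.19 with NT4 against NT3 (adjusted p = 0.744), where B2M was lower. CD68 also rose in senescent controls (0.70, adjusted p = 3.07e-10) and fell with CCND1 (-0.19, adjusted p = 0.0124) and dual knockdown (-0.20, adjusted p = 0.00708). Unlike B2M, CD68 was higher with CDK4 knockdown (0.48, adjusted p = 3.91e-06) and with NT4 than NT3 (0.55, adjusted p = 1.85e-06). With CDK6 knockdown CD68 was at -0.01 (adjusted p = 0.896). Of 4 endothelial markers VWF, PECAM1 and KDR were at most 22.3 and CDH5 at most 3.28. The sum of all 4 was 7.09 to 9.61 in proliferating cells and 35.0 to 48.2 in controls. That sum was 19.2 to 35.1 with CCND1 and 30.4 to 37.9 with CDK4 knockdown. With CDK6 and dual knockdown it was 24.4 to 32.6 and 16.0 to 18.8. KDR, an endothelial receptor, rose in senescent controls (3.06, adjusted p = 1.9e-05). It fell with CCND1 (-1.55, adjusted p = 0.0263), CDK6 (-1.45, adjusted p = 0.0277) and dual knockdown (-3.02, adjusted p = 6.25e-05). VWF, the other tested endothelial marker, also rose (2.07, adjusted p = 8.97e-07) but passed in no knockdown. VWF was at 0.11 with CCND1, 0.03 with CDK4, -0.05 with CDK6 and -0.53 with dual knockdown (adjusted p = 0.801, 0.958, 0.91 and 0.13). CD14, VWF and KDR had means of 3.76, 3.41 and 0.65 in proliferating cells, so they were tested only through irradiated libraries. The part of these markers in the results was not tested.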

How the data were processed

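IMR90 libraries were made by poly(A) capture, per the labels. The submitters' processing notes name Trimmomatic 0.38.1, HISAT2 2.2.1, featureCounts 2.0.3, DESeq2 2.11.40.8 and hg38. The deposited values are an expression signal, normalised read counts, 1 per gene and library. Each value is a whole multiple of a step in its library, so reads were recovered (100% of values whole within 0.1 read). Column headers carry the group and a serial code but no replicate number, so replicate numbers are names given in column order and pair no libraries. Log2 of the value plus 1 was fitted with limma 3.58.1 (R 4.3.3), 1 mean per group over 21 libraries, for the 11579 genes that reached a value of 10 in 3 or more libraries. Tests were two-sided with Benjamini-Hochberg adjustment over all tested genes in each of 11 comparisons, at a threshold of 0.05. Fold changes are on the log2(value + 1) scale and understate changes of low genes. Tested on simulated data for CDK6 knockdown against controls (11579 genes), limma recovered 81% of changes of 0.5 and 100% of changes of 1 on the log2 scale, with 4.74% false calls. There 100 genes were changed at each size, while 4853 genes were called in the data, so these shares need not hold for the data. Recovery was not split by level, so it does not speak for genes as low as TAP2 or HLA-E. Alternatives included edgeR 4.0.16 and DESeq2 1.42.0 on recovered reads.

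The members and gene lists were chosen with earlier results of these data known. The members were always named, as were 15 pathway genes apart from any not reported here, and otherwise at most 5 called genes per list and comparison with the largest change. The 10 fibroblast, 9 leukocyte, 4 endothelial and 5 epithelial markers were read for the cell type. Of the epithelial markers KRT18 was highest, at 826 to 1995. KRT19 was at 144 to 563, EPCAM at 12.2 to 47.8 and CDH1 at most 11.0, and SFTPC stayed under 10. KRT19 rose in senescent controls (0.74, limma adjusted p = 1.16e-06), where KRT18 fell (-0.36, adjusted p = 0.000373). With CCND1, CDK4, CDK6 and dual knockdown KRT19 was at 0.83, 0.17, 0.97 and 0.90, and KRT18 at -0.30, -0.03, -0.55 and 0.13. Genomic positions are those of RefSeq, matched by gene ID.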

Additional observations from a re-analysis of the deposited data

Results flagged for a closer look

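For CALR, calreticulin, the dual knockdown departed from the summed single knockdowns by 0.40 on the log2 scale (SE 0.08, adjusted p = 0.00401), where 6.35% of tested genes were called. CALR stood at 22306, 21081 and 23185 with CDK4 knockdown, 21679, 21067 and 20674 with CDK6 and 24897, 24782 and 23347 with the dual knockdown, so that the dual knockdown libraries were above those of both single knockdowns. The controls were at 24648, 23347 and 26583 with NT3 and 25054, 27740 and 24841 with NT4.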

How the results depend on the processing

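Tried in turn were a pseudocount of 0.1 or 10, every listed gene tested, genes with means of 100 or more, median centring, quantile normalisation, NT3 or NT4 alone as control, the compared groups alone, edgeR, DESeq2, and leaving out each library. The falls of B2M and HLA-B with CDK6 and dual knockdown and their rise in senescent controls kept direction and call under all of these that were run. The count of called members became 0 from 2 for NT4 against NT3 with these groups alone. With NT4 alone it became 1 from 2 for CCND1 knockdown and 0 from 2 for CDK4 knockdown. CCND1 against dual knockdown went from 0 to 1 with the compared groups alone. The departure of the dual knockdown went from 0 to 2 with NT3 alone and to 1 with DESeq2, and was 0 with NT4 alone. Dual knockdown against proliferating cells went from 1 to 0 with a mean of at least 100 (where TAP2 is not tested) and with quantile normalisation, to 3 with median centring and to 2 with the compared groups alone. Leaving out single libraries gave 1 to 2 members for NT4 against NT3 and 0 to 2 for the departure. Apart from what the alternatives' construction shows, the cause was not tested.

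Reversed values were all of uncalled differences. For HLA-E in senescent controls quantile normalisation gave -0.19. For HLA-E with CCND1 knockdown, pseudocount 10 gave -0.057, NT4 alone -0.32, edgeR -0.23 and DESeq2 -0.26. Quantile normalisation gave 0.29 for HLA-E and 0.071 for TAP2 with CDK6 knockdown, 0.55 for HLA-E with dual knockdown, 0.26 for HLA-E in dual against CDK6 and -0.18 in CCND1 against dual knockdown. NT3 alone gave 0.24 and 0.22 for HLA-E with CDK6 and dual knockdown. Leaving out libraries gave ranges for HLA-E of -0.24 to 1.37 (NT4 against NT3), -0.32 to 0.49 (CCND1), -0.44 to 0.37 (CDK6), -0.46 to 0.35 (dual) and -0.20 to 0.15 (dual against CDK6). For HLA-E in CCND1 against dual knockdown the range was -0.10 to 0.36. For HLA-B it was -0.25 to 0.077 (dual against CDK6) and -0.13 to 0.049 (CDK6 against CDK4), and for TAP2 -0.82 to 0.13 (dual against CDK6) and -0.50 to 0.45 (CCND1 against dual).

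Serial codes in the column headers fall into 3 sets, each with 1 library of every irradiated group in 1 order, and what a set stands for is not given. Within sets 1 of 45 pairs of libraries had deviations from their group means correlated above 0.1 (-0.11 to 0.10), and between sets 2 of 90. The median correlation was 0.037 within sets and -0.017 between sets, and 13 of 18 libraries correlated best with their own set. Libraries of a set were thus slightly more alike, and the main fit did not use the sets. The cause of this likeness was not tested. A fit with the set as a replicate block, chosen after seeing the data, changed no call of a member. The departure of the dual knockdown was then 0.39 for B2M (adjusted p = 0.0992) and 0.60 for HLA-B (adjusted p = 0.057), and B2M in CCND1 against dual knockdown was 0.19 (adjusted p = 0.216). Counts of called genes moved by at most 1.1 times, and NLRC5 with CCND1 knockdown passed (adjusted p = 0.048). HLA-C, HLA-F, TAP1, PSMB8 and PSMB9 held too few reads to be tested, and the 3 reads taken as the floor of a library exceed most of their values. The cause of their low values was not tested.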
